A study of Homo sapiens with 24 samples.

Results

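SIRPA, its ligand CD47 and 8 other genes that tumour cells use to restrain or engage immune cells were followed across 24 RNA-seq libraries of the human non-small cell lung carcinoma lines H1299 and A549. The other genes were CD274, PDCD1LG2, CD276, VTCN1 and HHLA2 of the B7 family, the adhesion ligands PVR and NECTIN2, and the galectin LGALS9. These 10 genes are a list of tumour cell checkpoint genes among the 59385 gene symbols counted. They were chosen from measured values of SIRPA: its transcript was taken as lower with K3Q than with the empty vector in H1299 alone. The values of K3Q against empty vector are therefore a description here, with no test. SIRPA was tested in the comparison of K3R with WT alone, since the empty-vector and K3Q libraries chose it. All 10 genes are accounted for below. Of them, 9 passed the filter on low counts in A549 and 7 in H1299, and 6 had at least 1 count in every library.

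Both lines had been transduced with lentivirus and stably expressed a FLAG-tagged construct. The constructs were wild-type SIRT6 (WT), SIRT6 K3R, SIRT6 K3Q and, as reference, the empty FLAG vector (Ctr). SIRT6 is a NAD-dependent deacylase of chromatin. In the names K3R and K3Q, lysine is replaced by arginine or glutamine, which are commonly used as non-acetylatable and acetylation-mimicking residues. No source used here gives the positions changed, the promoter of the vector or whether the cells were pools or clones. Each of the 8 groups had 3 libraries, written below as biological replicate and batch (1-1, 1-2 and 2-2). Nothing says that libraries 1-1 and 1-2 came from separate cultures, so p-values measure the spread between these libraries, which may be partly technical.

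CD47 is a membrane protein of nearly all cells, and its receptor SIRPα, encoded by SIRPA, carries inhibitory motifs that recruit the phosphatases SHP-1 and SHP-2. On macrophages this contact restrains phagocytosis, and CD47 on tumour cells is known as a "do not eat me" signal. SIRPA is best known from myeloid cells and neurons but is also transcribed in some tumour cells. PD-L1 (CD274) and PD-L2 (PDCD1LG2) bind PD-1 on T cells, and PVR and NECTIN2 bind the inhibitory receptor TIGIT and the activating receptor CD226. CD276 (B7-H3), VTCN1 (B7-H4) and HHLA2 (B7-H7) are further B7 proteins, and LGALS9 encodes galectin-9, a ligand of TIM-3.

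SIRT6 transcript separated the constructs from Ctr in every library. It averaged 3751 ± 2230, 4097 ± 1550 and 12600 ± 2020 CPM (counts scaled to a common library size) with WT, K3R and K3Q in H1299, against 36.81 ± 5.33 CPM in Ctr (SD, n = 3 each). In A549 it averaged 2380 ± 814, 2443 ± 994 and 1682 ± 118 CPM, against 27.74 ± 4.84 CPM in Ctr. The dose of SIRT6 RNA therefore differed between constructs in H1299, where K3Q was highest. Libraries held 14943189 to 22856407 counts. A549 K3Q libraries 1-2 and 2-2 were nearly identical, with a chi-square per degree of freedom of 2.49 over genes, while the 23 remaining within-group pairs gave 14.4 to 63.6, so A549 K3Q may hold fewer independent samples than its 3 libraries. The 2-2 libraries of the other A549 groups stood apart in several of the genes described here, as given beside each.

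No promoter of SIRPA or PDCD1LG2 was found in the RefSeq set used, so both are left out of this paragraph. The promoters of 8 of the 10 genes were found there (GRCh38.p14, 250 bases before to 50 bases after the annotated start). Of these, 3 are printed as examples: similar levels in both lines (CD47), more in H1299 without passing the test (CD274), and almost no transcript in H1299 (VTCN1). Those of NECTIN2 and CD276, which passed between the lines, are not printed. CpG dinucleotides are in capitals, and each runs 5′ to 3′ on the gene's strand. They lie at chr3:108090982-108091281 (minus strand), chr9:5450292-5450591 (plus strand) and chr1:117210878-117211177 (minus strand).
CD47: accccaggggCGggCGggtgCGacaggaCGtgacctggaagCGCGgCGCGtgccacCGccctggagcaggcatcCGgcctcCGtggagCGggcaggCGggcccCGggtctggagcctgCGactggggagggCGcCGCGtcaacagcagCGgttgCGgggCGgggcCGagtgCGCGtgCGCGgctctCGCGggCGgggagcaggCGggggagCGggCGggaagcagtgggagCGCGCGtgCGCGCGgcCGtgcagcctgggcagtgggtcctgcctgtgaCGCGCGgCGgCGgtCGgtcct
CD274: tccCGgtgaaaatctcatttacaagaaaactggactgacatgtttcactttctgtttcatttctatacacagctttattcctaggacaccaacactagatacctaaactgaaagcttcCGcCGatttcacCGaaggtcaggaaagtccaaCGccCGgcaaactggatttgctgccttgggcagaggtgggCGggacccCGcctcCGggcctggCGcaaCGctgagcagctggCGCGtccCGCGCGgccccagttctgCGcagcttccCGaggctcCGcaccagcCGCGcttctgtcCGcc
VTCN1: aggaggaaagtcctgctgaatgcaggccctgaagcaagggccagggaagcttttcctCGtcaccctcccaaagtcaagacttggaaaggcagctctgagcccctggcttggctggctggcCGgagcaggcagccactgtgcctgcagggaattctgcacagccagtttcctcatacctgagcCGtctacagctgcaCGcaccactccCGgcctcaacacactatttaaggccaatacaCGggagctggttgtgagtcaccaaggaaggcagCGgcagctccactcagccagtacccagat
CD47 held 45 CpG dinucleotides in 300 bases, more than 96.6% of the 27305 RefSeq promoters of that length, whose median was 14. CD276 held 37 and 28 at its 2 starts, PVR 27, NECTIN2 26 and CD274 22. VTCN1 held 7, LGALS9 2, and HHLA2 between 0 and 4 at its 3 starts. The 5 genes with 22 or more had at least 43 counts in every H1299 library, and VTCN1, LGALS9 and HHLA2 at most 4. This did not hold in A549, where CD274 had 4 to 64 counts, VTCN1 5 to 39 and LGALS9 5 to 35. A STAT-type GAS motif (TTCNNNGAA, either strand), present in 7.88% of promoters, was found in CD274 alone of the 8 genes, starting 125 bases before the start. A GC box (GGGCGG) was found in CD47, CD274, CD276 and NECTIN2, against 44.6% of all promoters. The hypoxia response core ACGTG, in 21.6% of promoters, was found in CD47 and CD276. The E-box CACGTG, which contains that core, and the NF-kB motif were not found in these windows and are in 7.43% and 5.72% of promoters.

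With the empty vector, the ligands of TIGIT led the 10 genes in both lines and SIRPA held very different places. Levels were compared between genes as CPM per kilobase of exon (GENCODE 29). In H1299 Ctr, NECTIN2 stood at 70.3 ± 4.07 and PVR at 54.0 ± 4.16 CPM per kb (SD, n = 3), and their libraries did not overlap. CD276 (7.72 ± 0.291) and CD47 (7.48 ± 0.434) followed and overlapped. CD274 (1.07 ± 0.487) and SIRPA (0.835 ± 0.0461) overlapped as well, and PDCD1LG2 (0.117 ± 0.0845) lay below both. In A549 Ctr the order was PVR at 66.6 ± 4.32, NECTIN2 at 39.5 ± 7.23, SIRPA at 16.9 ± 3.98, CD276 at 12.4 ± 3.18 and CD47 at 7.58 ± 1.51 CPM per kb, where SIRPA overlapped CD276 and CD276 overlapped CD47. CD274 (0.445 ± 0.407), VTCN1 (0.333 ± 0.361), LGALS9 (0.167 ± 0.0206), PDCD1LG2 (0.147 ± 0.168) and HHLA2 (0.0109 ± 0.00942) each overlapped the next in the order.

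**Figure D1:**
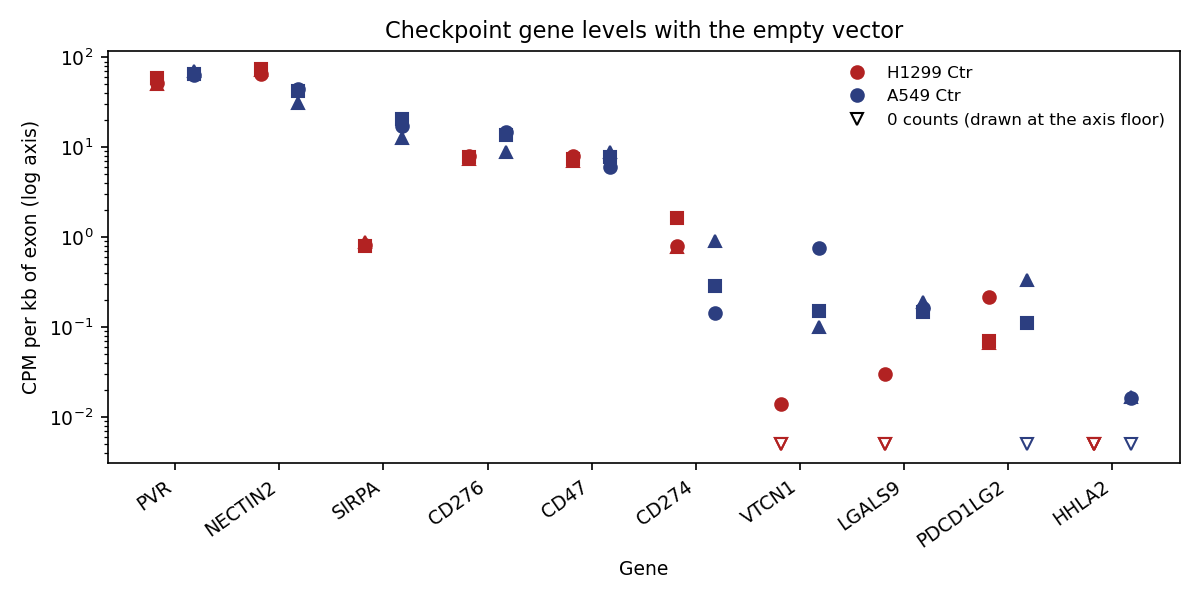
Level of each of the 10 genes with the empty vector in CPM per kb of exon (log axis), 1 point per library, with H1299 left of A549 and open triangles for libraries with 0 counts. SIRPA lies at 0.835 on average in H1299 and at 16.9 in A549, while CD47 lies at 7.48 and 7.58.

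Between the lines, 6 genes other than SIRPA passed the low-count filter in each line on its own and could be compared with Ctr. Of these 6, NECTIN2 was higher and CD276 lower in H1299 at an adjusted p under 0.05 (edgeR quasi-likelihood test over 18102 genes, Benjamini-Hochberg). Of all 18102 genes 63.8% passed, and of the 14346 tested in both lines 61.1% passed, 31.2% higher and 30% lower. NECTIN2 was higher in H1299, at 263.4 ± 15.2 CPM against 148.1 ± 27.1 CPM in A549 (log2 0.88 ± 0.14 SE, adjusted p = 1.13e-05, edgeR). CD276 was lower in H1299, at 42.76 ± 1.61 against 68.77 ± 17.6 CPM (log2 -0.64 ± 0.18, adjusted p = 0.00321, edgeR). That CD276 call was lost in batch 2 alone and with biological replicate 1 summed (adjusted p 0.0618 and 0.0752). LGALS9 and VTCN1 entered the joint fit through A549 alone, so their counts are given with no test. LGALS9 had 4, 0 and 0 counts in H1299 Ctr, against 16, 13 and 18 in A549 Ctr. VTCN1 had 1, 0 and 0 counts in H1299 Ctr, against 39, 7 and 5 in A549 Ctr. The summed counts gave a ratio of 54.7 higher in A549 with a 95% counting interval of 9.39 to 2200. That interval leaves out the spread between libraries, which was wide in A549 Ctr. CD47 did not pass, with a log2 difference of 0.04 and an interval of -0.23 to 0.30, nor did PVR at -0.26 (-0.56 to 0.03). SIRPA, given with no test, stood at 4.233 ± 0.234 CPM in H1299 Ctr against 85.64 ± 20.2 CPM in A549 Ctr, 19.7-fold lower in H1299.

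SIRPA (GRCh38 chromosome 20, 1894167 to 1940592, plus strand) was lower with all 3 constructs than with Ctr in H1299, and lower on average with all 3 in A549 too. The lower level was thus not seen with K3Q in H1299 alone. All changes of a line share the Ctr libraries, and those of H1299 helped to choose the gene, so the 3 changes are a description and not independent of each other. In H1299 WT, SIRPA had 1.52, 1.56 and 1.77 CPM (35, 30 and 32 counts). In H1299 K3R it had 0.902, 0.614 and 1.10 CPM (21, 13 and 19 counts), and in H1299 K3Q it had 0.673, 0.660 and 0.607 CPM (15, 10 and 12 counts). In H1299 Ctr it had 4.19, 4.02 and 4.49 CPM (99, 73 and 85 counts). Each of the 9 libraries with a construct lay under each of the 3 Ctr libraries. The log2 changes against the same Ctr libraries were -1.40 ± 0.25 (SE) for WT, -2.30 ± 0.27 for K3R and -2.69 ± 0.28 for K3Q, which is 2.65-, 4.93- and 6.43-fold lower. In batch 2 alone the changes were -1.36, -2.35 and -2.74 for WT, K3R and K3Q. In bulk RNA, fewer cells transcribing a gene and less transcript per cell cannot be told apart.

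In A549, SIRPA transcript was more abundant in every group than in any H1299 group. It had 64.3, 56.6 and 53.3 CPM in A549 WT, 61.4, 46.5 and 50.7 CPM in A549 K3R, 66.3, 61.7 and 60.2 CPM in A549 K3Q, and 86.7, 105 and 65.0 CPM in A549 Ctr. WT and K3R libraries all lay under the Ctr libraries, the K3Q library 1-1 lay above the Ctr library 2-2, and the log2 changes were -0.56 ± 0.15, -0.70 ± 0.15 and -0.44 ± 0.15 for WT, K3R and K3Q. Ctr was spread widely, and without its library 1-2 these changes were -0.331, -0.477 and -0.211. The change in H1299 minus that in A549 was -0.85 ± 0.23 for WT and -1.61 ± 0.25 for K3R, with no test because Ctr helped to choose the gene. Over all 8 groups, the order of SIRPA means was H1299 K3Q, K3R, WT and Ctr, then A549 K3R, WT, K3Q and Ctr. H1299 K3Q overlapped H1299 K3R, the 4 A549 groups overlapped their neighbours in that order, and all other neighbours were apart.

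**Figure D2:**
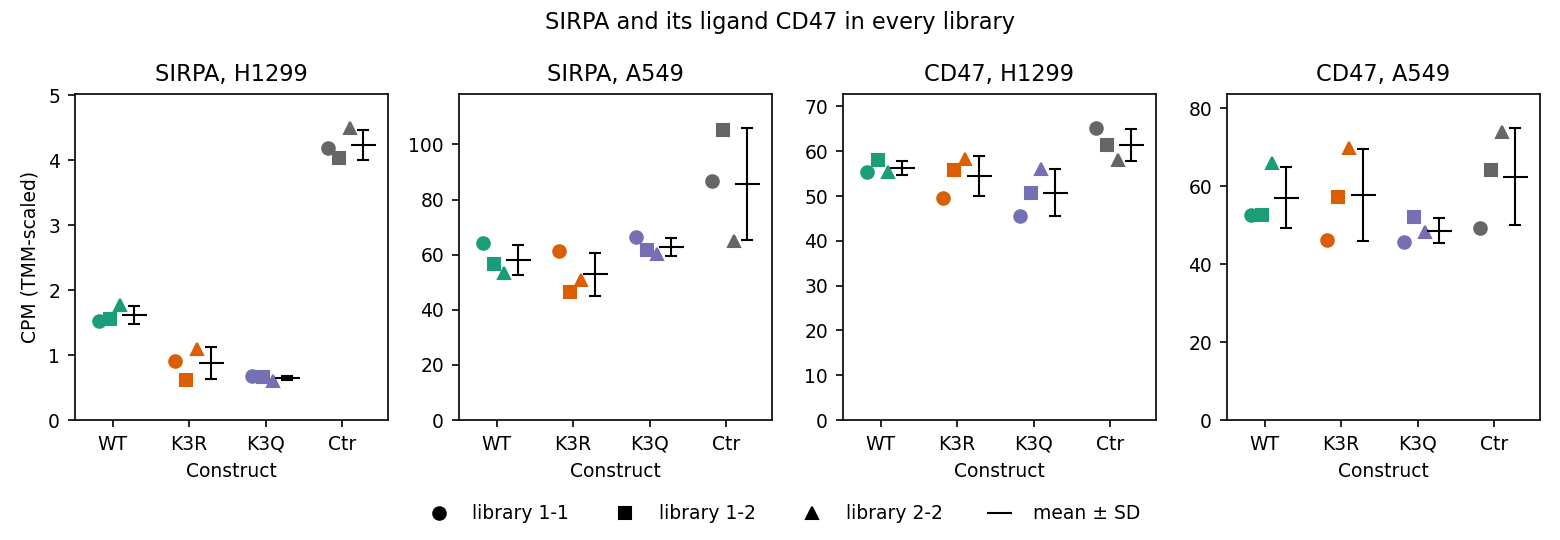
SIRPA and CD47 in TMM-scaled CPM in each library of each construct, with the mean and SD of 3 libraries beside the points (each panel has its own axis from 0). The 9 libraries with a SIRT6 construct in H1299 lie between 0.607 and 1.77 CPM of SIRPA, and the 3 Ctr libraries between 4.02 and 4.49 CPM, while CD47 lies within 45.6 to 65.1 CPM in H1299.

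Among the constructs of H1299, SIRPA was lower with K3Q than with WT (log2 -1.28 ± 0.29, no overlap between the libraries, no test) and close to K3R (log2 -0.38 ± 0.31, overlapping). The value against K3R rested on single libraries, at -0.593 without K3R 1-2 and -0.186 without K3R 2-2. K3R against WT was the comparison free of the libraries that chose the gene. SIRPA was lower with K3R in 3 of 3 libraries matched by replicate and batch, with a log2 change of -0.90 ± 0.28 (interval -1.50 to -0.30, unadjusted p = 0.00628), but it did not pass over all genes (adjusted p = 0.9987, edgeR). No gene of 16262 passed there by edgeR or DESeq2, so the share called was 0%, and 486 genes had an unadjusted p under 0.05. In A549 the same comparison gave -0.14 ± 0.15 (interval -0.47 to 0.18, adjusted p = 1, edgeR).

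Within each line, the group means of SIRPA fell in the order in which those of SIRT6 rose. That order was Ctr, WT, K3R and K3Q in H1299, and Ctr, K3Q, WT and K3R in A549. Libraries within a group did not all follow it. In H1299 the K3Q libraries held the most SIRT6 (10300 to 14060 CPM). K3Q also had the lowest mean of SIRPA, but its libraries overlapped those of K3R in SIRPA. WT and K3R had similar SIRT6, at 2306 to 6319 and 2588 to 5677 CPM, while their SIRPA levels did not overlap. Within WT and within K3R, library 2-2 had both the most SIRT6 and the most SIRPA. In A549, SIRT6 with the 3 constructs ran from 1460 to 3454 CPM and overlapped between them. The part of SIRT6 dose in the SIRPA levels was not tested.

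**Figure D3:**
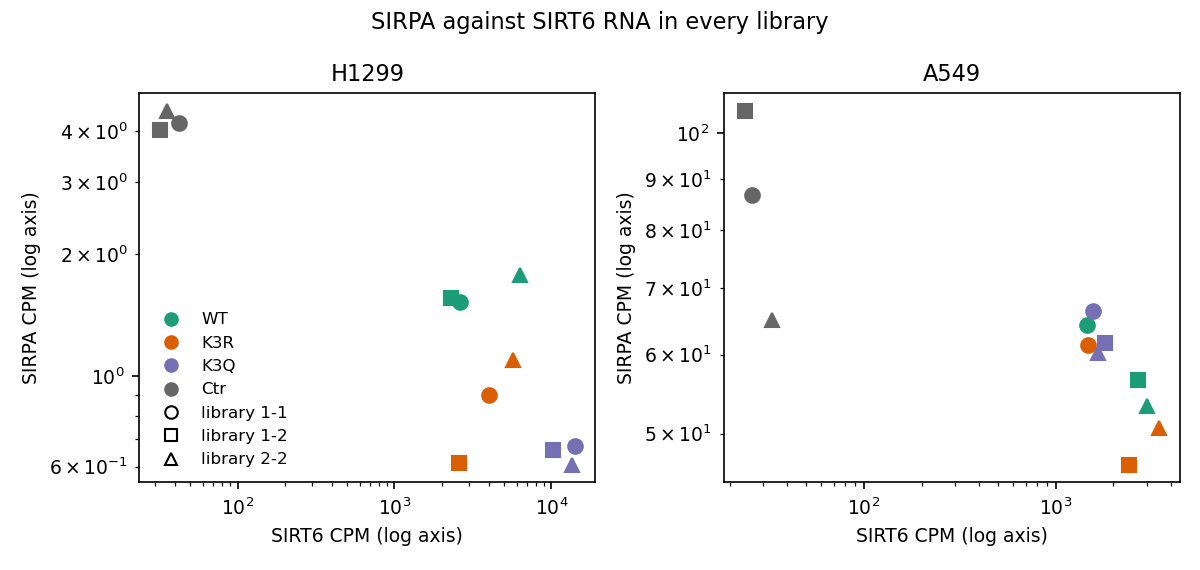
SIRPA against SIRT6 in CPM (both axes log), 1 point per library, with colours for constructs and shapes for libraries. The Ctr libraries form a cluster of their own at 23.92 to 42.61 CPM of SIRT6 in both lines, and in H1299 the K3Q libraries lie at the highest SIRT6 and at 0.607 to 0.673 CPM of SIRPA.

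SIRPA is a myeloid gene, and markers of leukocytes were low in all libraries. The summed level of 14 leukocyte markers was 4.17 to 7.08, 4.17 to 5.96 and 4.22 to 6.14 CPM in H1299 WT, K3R and K3Q, and 6.12 to 7.33 CPM in Ctr. ITGAM was at 1.65 to 5.95 CPM (median 4.77) over the H1299 libraries, and the other 13 markers were under 1 CPM in every H1299 library. PTPRC, which defines leukocytes, was at most 0.261 CPM in H1299 and 0.0619 CPM in A549, and AIF1 at most 0.0897 CPM in H1299 and 0 in A549. In A549 the sum was 8.47 to 11.9 CPM over all groups, with CD14 and ITGAM above 1 CPM. Of related genes whose reads could be shared with SIRPA, SIRPB1 had 1, 0 and 2 counts over the 3 libraries of H1299 WT, K3R and K3Q, and 5 in Ctr.

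CD47 (chromosome 3, 108043094 to 108091862, minus strand) kept nearly the same level in both lines, and no change of it passed. In H1299 it had 55.3, 58.0 and 55.3 CPM with WT, 49.6, 55.7 and 58.3 CPM with K3R, 45.6, 50.6 and 56.0 CPM with K3Q, and 65.1, 61.5 and 57.9 CPM with Ctr. The 3 K3Q libraries lay under the 3 Ctr libraries, by -0.27 on the log2 scale, while those of WT and K3R overlapped Ctr. For WT the log2 change was -0.15 (interval -0.36 to 0.07, adjusted p = 0.496) and for K3R -0.20 (-0.41 to 0.02, adjusted p = 0.3265; edgeR). In A549 it had 52.5, 52.6 and 66.0 CPM with WT, 46.2, 57.1 and 69.7 CPM with K3R, 45.6, 52.0 and 48.2 CPM with K3Q, and 49.1, 64.0 and 73.8 CPM with Ctr. Library 2-2 was the highest in WT, K3R and Ctr but not in K3Q. The A549 K3Q libraries all lay under those of WT, with a log2 difference of -0.23 (interval -0.51 to 0.05, adjusted p = 0.8372, edgeR), and by -0.34 under Ctr with overlap. The changes in H1299 minus those in A549 were between -0.09 and 0.15, and each interval held 0.

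The PD-1 ligand genes lie side by side on chromosome 9, CD274 at 5450503 to 5470566 and PDCD1LG2 at 5510570 to 5571254, both on the plus strand. PDCD1LG2 was the 1 gene of the 10 that passed a test within a line, for K3R against Ctr in H1299. That call was kept in 7 of 21 alternatives. In H1299 it had 0.695, 0.937 and 1.44 CPM with WT (16, 18 and 26 counts), 1.07, 1.18 and 1.22 CPM with K3R (25, 25 and 21 counts) and 0.493, 0.330 and 0.607 CPM with K3Q (11, 5 and 12 counts). With Ctr it had 0.508, 0.165 and 0.158 CPM (12, 3 and 3 counts). WT and K3R libraries all lay above Ctr, and K3Q lay between and overlapped Ctr. K3R against Ctr gave a log2 change of 1.96 ± 0.49 (higher in 3 of 3 libraries, adjusted p = 0.0460, edgeR), which was 1 of 6 genes tested, against 3.25% of all genes called there and 1.96% called higher. WT against Ctr gave 1.78 ± 0.50 (higher in 3 of 3 libraries, interval 0.71 to 2.85, adjusted p = 0.06485, edgeR) and passed with the replicate block at 1.76 (adjusted p = 0.0334) but not in batch 2 alone or with biological replicate 1 summed (adjusted p = 0.0847 and 0.176). K3Q against Ctr gave 0.75, with no test. PDCD1LG2 passed the low-count filter in H1299 through the WT and K3R libraries, where it was highest. The filter and the tests of these groups thus drew on the same counts, so its p-values there are a description.

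These counts are near the detection floor, and 3 counts in a library correspond to 0.127 to 0.198 CPM. The K3R call passed with the replicate block (adjusted p = 0.0194), RLE scaling, no low-count filter and DESeq2. It was lost without a batch term, in one fit of 24 libraries, in batch 2 alone and with biological replicate 1 summed or alone (adjusted p 0.051, 0.301, 0.122, 0.168 and 0.0858). Leaving out any of 9 of the 12 libraries also lost it: WT 1-2, each K3R library, each K3Q library, Ctr 1-2 and Ctr 2-2, with adjusted p of 0.0594 to 0.178. Without Ctr 1-1, the highest Ctr library, the log2 change was 2.67 for WT, 2.87 for K3R and 1.67 for K3Q. Those of WT and K3R passed (adjusted p = 0.0260 and 0.0251, edgeR), and the K3Q libraries then lay above both remaining Ctr libraries. K3Q lay under K3R and under WT with no overlap, at log2 -1.21 ± 0.46 and -1.03 ± 0.47 (adjusted p = 0.2961 and 0.2321, edgeR), which did not pass.

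In A549, most PDCD1LG2 counts lay in library 2-2 of WT, K3R and Ctr. It had 1, 1 and 17 counts with WT, 1, 1 and 15 with K3R, 0, 3 and 2 with K3Q, and 0, 4 and 13 with Ctr. CD274 followed the same libraries, at 0.731, 0.258 and 2.83 CPM with WT, 0.867, 0.553 and 4.12 CPM with K3R, 0.494, 0.433 and 0.870 CPM with K3Q, and 0.582, 1.18 and 3.73 CPM with Ctr. Library 2-2 was the highest for CD274 in each of the 4 groups, while the K3Q 2-2 library, the near-copy of K3Q 1-2, reached 0.870 CPM only. No A549 change of either gene passed, and the intervals were wide, from -2.24 to 1.41 on the log2 scale for CD274 with WT against Ctr. In the same 3 libraries CD47 and PVR were the highest of their groups and CD276 the lowest.

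**Figure D4:**
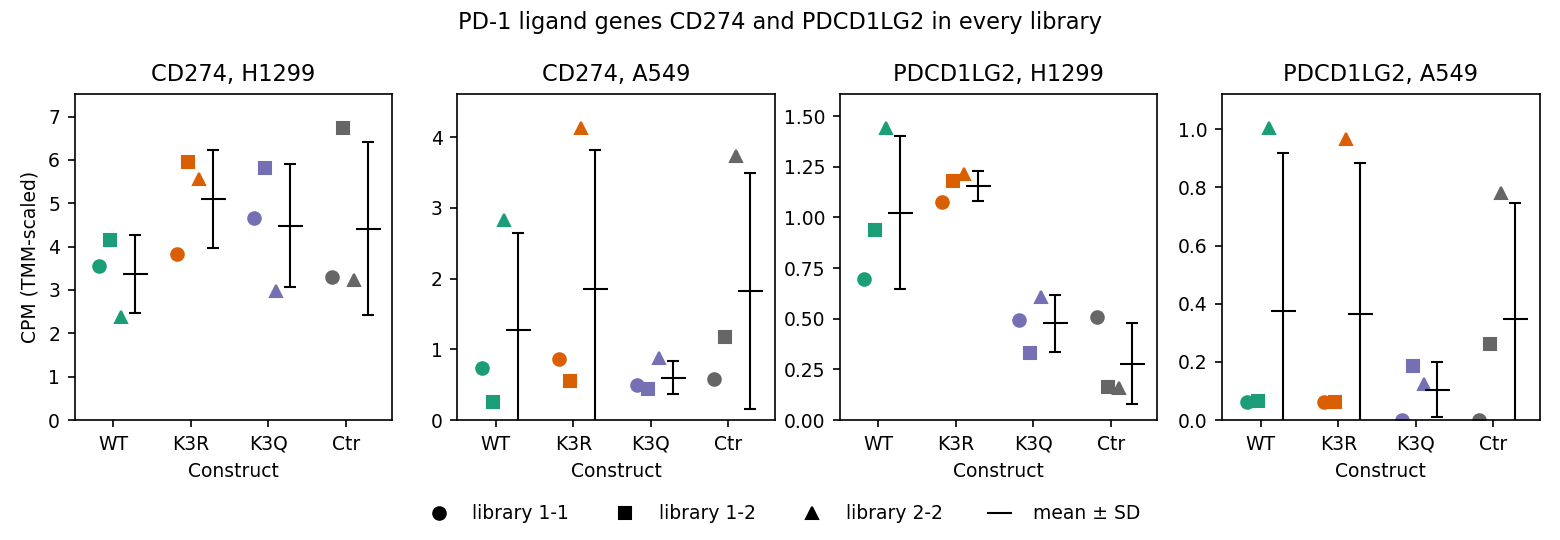
CD274 and PDCD1LG2 in TMM-scaled CPM in each library, with the mean and SD of 3 libraries (lower bars end at 0 where the SD exceeds the mean). In A549 the 2-2 libraries of WT, K3R and Ctr stand at 2.83 to 4.12 CPM of CD274 while all other A549 libraries are at 1.18 CPM or less.

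CD274 in H1299 overlapped between all groups. It had 3.56, 4.16 and 2.38 CPM with WT, 3.82, 5.95 and 5.56 CPM with K3R, 4.66, 5.81 and 2.98 CPM with K3Q, and 3.30, 6.73 and 3.22 CPM with Ctr. The log2 changes were -0.38 ± 0.33 for WT (adjusted p = 0.63) and 0.19 ± 0.33 for K3R (adjusted p = 0.8191; edgeR), with intervals of -1.10 to 0.34 and -0.51 to 0.89. In Ctr, CD274 was higher in H1299 than in A549 on average (log2 1.36 ± 0.63, interval 0.05 to 2.68) without passing (adjusted p = 0.06503, edgeR). It passed with the replicate block at 1.48 (adjusted p = 0.0371). It did not pass in batch 2 alone at 1.01 or with biological replicate 1 summed at 0.914 (adjusted p = 0.349 and 0.371). Without the A549 Ctr library 2-2 the difference was 2.29 (adjusted p = 0.0108).

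CD276 (chromosome 15, 73683966 to 73714518, plus strand) was abundant and overlapped between the 4 groups of each line. It averaged 43.18 ± 5.48, 43.93 ± 5.15 and 38.37 ± 7.51 CPM with WT, K3R and K3Q in H1299, against 42.76 ± 1.61 CPM in Ctr. In A549 the means were 70.59 ± 10.6, 71.11 ± 12 and 72.09 ± 2.36 CPM, against 68.77 ± 17.6 CPM in Ctr. The lowest A549 library outside K3Q was 2-2 in each group (58.8, 57.7 and 48.6 CPM for WT, K3R and Ctr). The other B7 genes were scarce. VTCN1 (chromosome 1, 117143587 to 117210960, minus strand) had 17, 9 and 17 counts with WT, 26, 15 and 7 with K3R, 39, 14 and 16 with K3Q, and 39, 7 and 5 with Ctr in A549, and 0 in every H1299 library but Ctr 1-1, which had 1. HHLA2 (chromosome 3, 108296490 to 108378285, plus strand) had 0 to 2 counts in every library and was tested in neither line.

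The poliovirus receptor gene PVR and NECTIN2, both on chromosome 19 (44643798 to 44663583 and 44846175 to 44889228, plus strand), had the most reads of the 10 genes. In H1299, PVR averaged 193 ± 18.6, 205.4 ± 23.5 and 182.7 ± 14.2 CPM with WT, K3R and K3Q, against 190 ± 14.6 CPM in Ctr. In A549 it averaged 222.1 ± 28.3, 226.9 ± 54.6 and 212.7 ± 26.4 CPM, against 234.5 ± 15.2 CPM in Ctr. NECTIN2 averaged 290.6 ± 40.2, 277.7 ± 10.3 and 281.6 ± 38.5 CPM in H1299, against 263.4 ± 15.2 CPM in Ctr. In A549 it averaged 135.8 ± 10, 132.7 ± 15.8 and 130.3 ± 16.1 CPM, against 148.1 ± 27.1 CPM in Ctr. The groups of each line overlapped for both genes. For WT and K3R against Ctr, the intervals of their log2 changes stayed within -0.40 to 0.38 in both lines.

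LGALS9 (chromosome 17, 27629798 to 27649560, plus strand) was seen in A549 at 11, 8 and 28 counts with WT, 19, 9 and 7 with K3R, 35, 5 and 8 with K3Q, and 16, 13 and 18 with Ctr. The groups overlapped, and the log2 changes of WT and K3R against Ctr were 0.04 ± 0.60 and -0.48 ± 0.63. In H1299 it had 4 counts in Ctr 1-1, 1 count in K3R 2-2 and 0 in the other 10 libraries, where the floor of 3 counts is 0.127 to 0.198 CPM. Reads of LGALS9 cannot be told apart with certainty from those of its near-copies LGALS9B and LGALS9C on the same chromosome.

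**Figure D5:**
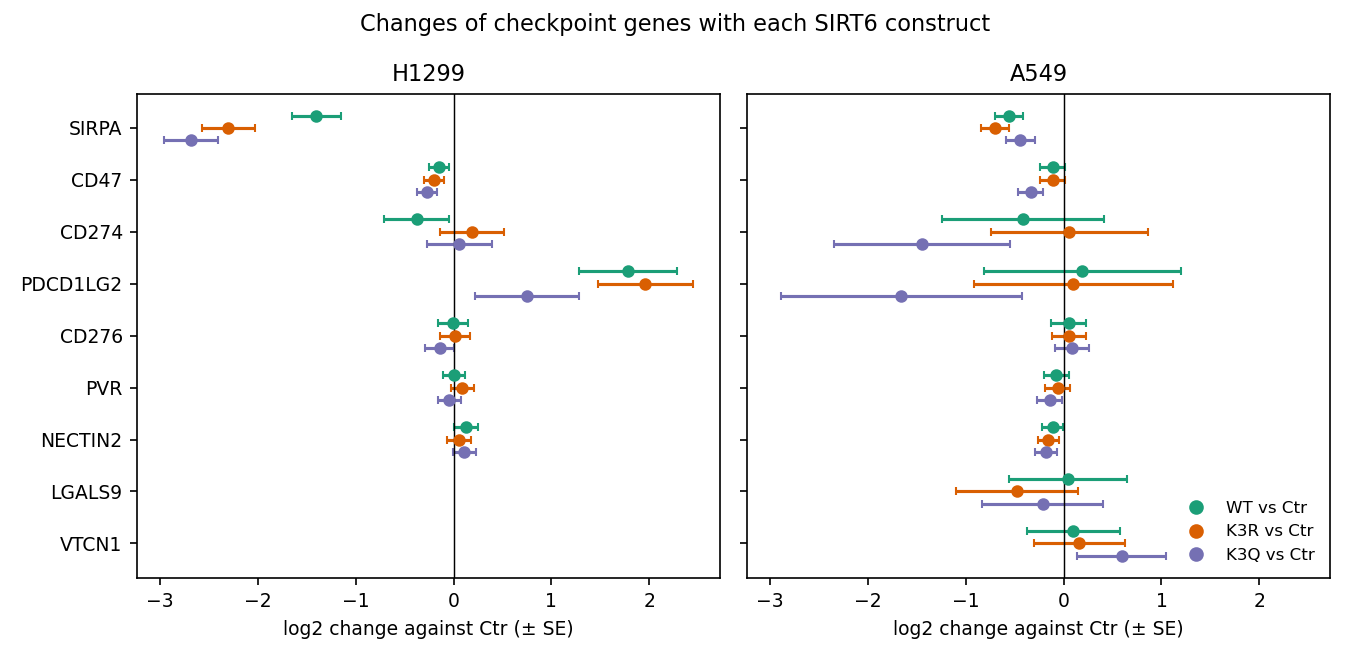
Log2 change against Ctr with its standard error for the members tested in each line, with WT, K3R and K3Q from top to bottom within each gene and 3 libraries per group. In H1299 SIRPA lies at -1.40, -2.30 and -2.69 and PDCD1LG2 at 1.78, 1.96 and 0.75, and CD47, CD276, PVR and NECTIN2 lie within 0.35 of 0 in both lines.

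Counted over the comparisons that the choice of genes did not use, the other 8 genes rarely passed, as did genes at large in A549. In A549, 0 of 8 passed by edgeR or DESeq2 in any of WT against Ctr, K3R against Ctr, K3Q against WT or K3Q against K3R, with 0 at an unadjusted p under 0.05, against 0.105%, 0.118%, 0.0062% and 0.0062% of all genes called. In H1299, 0 of 6 passed for WT against Ctr, against 4.05% of all genes. There PDCD1LG2 alone had an unadjusted p under 0.05 and a DESeq2 call, beside 2849 and 1057 of 16262 genes. For K3Q against WT and against K3R, 0 of 6 passed by edgeR and DESeq2, against 3.46% and 0.449%. PDCD1LG2 alone had an unadjusted p under 0.05 in each, beside 3296 and 1938 genes. For K3Q against Ctr, which chose the genes, 0.0615% of all genes were called in H1299 and 0.0248% in A549. For 6 genes tested in both lines, 0 differences in change between the lines passed in each of 4 interactions by edgeR and DESeq2, with 0 at an unadjusted p under 0.05. Of all genes, 0.365% (WT against Ctr), 0.238% (K3R against Ctr), 0.16% (K3Q against WT) and 0.0442% (K3Q against K3R) passed there. LGALS9 and VTCN1, nearly without counts in H1299, could not be compared in this way. K3R against WT called 0% of genes in either line, with 0 of 9 members passing in A549 and 0 of 7 in H1299.

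Among 20 further genes of the CD47 and SIRPA axis, 11 were measured in H1299 and 13 in A549. THBS1, whose product thrombospondin-1 also binds CD47, rose with WT in H1299, with 74.1, 145 and 189 CPM against 62.8, 26.8 and 34.4 CPM in Ctr (log2 1.60 ± 0.39, higher in 3 of 3 libraries, adjusted p = 0.0385, edgeR). It was 1 of 11 called, with a median log2 change of 0.27 against -0.01 over all genes and 4.05% of all genes called. THBS1 was lower with K3Q, at 19.7, 49.7 and 58.2 CPM, than with WT (log2 -1.66 ± 0.38, adjusted p = 0.0353, edgeR). QPCTL, the glutaminyl cyclase that modifies CD47 for SIRPα binding, was higher with K3Q than with WT, at 58.86 ± 4.96 CPM against 42.2 ± 2.73 CPM (log2 0.51 ± 0.12, adjusted p = 0.0438, edgeR). The THBS1 rise was lost without WT 1-2, WT 2-2, K3R 1-1, K3Q 1-2, K3Q 2-2, Ctr 1-2 or Ctr 2-2, with log2 changes of 1.15 to 2.43 over all alternatives. The K3Q change of THBS1 passed in 14 of 21 alternatives. It was lost with no batch term, with biological replicate 1 summed and without WT 1-2, WT 2-2, K3R 1-1, K3Q 1-1 or K3Q 1-2 (adjusted p up to 0.174). The QPCTL call passed in 9 of 21 alternatives and in 4 of 12 fits that left out 1 library. With 3.46% of all genes called for K3Q against WT, these were 2 of 11 genes. In A549 and in H1299 K3R against Ctr, 0 of the list passed.

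Between the lines with Ctr, 11 genes of this axis passed the low-count filter in each line, and 2 were higher and 8 lower in H1299 than in A549. Of all genes tested in both lines, 31.2% were called higher and 30% lower. CD24, a ligand of the macrophage receptor Siglec-10, stood at 0.6196 ± 0.37 CPM against 313.1 ± 167 CPM (log2 -8.87 ± 0.43, adjusted p = 2.10e-13, edgeR). PTPN6 and FYB1 entered the joint fit through A549 alone and are given with no test. PTPN6, which encodes the SIRPα-bound phosphatase SHP-1, had 3 counts over the H1299 Ctr libraries against 1754 over those of A549. The ratio was 627 higher in A549, with a counting interval of 214 to 3040 that leaves out the spread between libraries. PTPN11, which encodes SHP-2, stood at 302.6 ± 37.9 CPM in H1299 Ctr and 273.1 ± 19.2 CPM in A549 Ctr. FYB1, an adaptor, stood at 0.144 ± 0.125 against 21.05 ± 7.25 CPM.

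Of 10 genes of galectins and a galectin-binding protein, LGALS3, whose product galectin-3 binds the T cell receptor LAG-3 among others, was the 1 that passed within a line. In H1299 it had 23.8, 18.9 and 31.4 CPM with WT, 25.5, 20.3 and 28.1 CPM with K3R, 11.9, 10.2 and 12.1 CPM with K3Q, and 15.9, 8.82 and 11.1 CPM with Ctr. WT and K3R lay above Ctr in all libraries, and K3Q overlapped Ctr. The log2 changes were 1.04 ± 0.21 for WT (adjusted p = 0.0173) and 1.03 ± 0.21 for K3R against the same Ctr libraries (adjusted p = 0.0211), and -1.08 ± 0.22 for K3Q against WT (adjusted p = 0.0183; edgeR). It was 1 of 4 genes of the list tested in each of these, against 4.05%, 3.25% and 3.46% of all genes called. The WT call was lost without WT 2-2, Ctr 1-2 or Ctr 2-2, the K3R call without K3R 1-1, K3R 2-2, Ctr 1-2 or Ctr 2-2, and the K3Q call without WT 2-2, K3Q 1-1 or K3Q 1-2. All 3 calls were also lost in batch 2 alone and with biological replicate 1 summed, with adjusted p up to 0.0768, 0.123 and 0.19 over all alternatives. In A549, LGALS3 averaged 64.43 ± 1.32, 62.41 ± 3.26 and 61.42 ± 3.32 CPM with WT, K3R and K3Q, against 63.16 ± 11.8 CPM in Ctr. Between the lines with Ctr, 4 of the list were tested in both lines, 1 higher and 3 lower in H1299, against 31.2% and 30% of all such genes. Among the lower were LGALS8 (log2 -3.06) and LGALS3BP (-4.07), which encodes a protein that binds galectins. LGALS4, which entered through A549 alone, had 9 counts in H1299 Ctr against 64 in A549 Ctr.

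All 20 regulators of PD-L1 transcript or protein were measured, and 0 or 1 passed in each comparison within a line. Of all genes, 4.05%, 3.25% and 3.46% were called in H1299 for WT against Ctr, K3R against Ctr and K3Q against WT, and 0.118% in A549 for K3R against Ctr. MYC was lower with WT than with Ctr in H1299, at 150.6 ± 8.2 CPM against 234.8 ± 45.9 CPM (log2 -0.66 ± 0.14, adjusted p = 0.0222, edgeR). It was higher with K3Q, at 262.9 ± 42.3 CPM, than with WT (log2 0.83 ± 0.14, adjusted p = 0.00947, edgeR). The WT call was lost without WT 1-1, WT 2-2, Ctr 1-1 or Ctr 2-2, and the K3Q call without K3Q 1-1. Both were also lost in one fit of 24 libraries, in batch 2 alone and with biological replicate 1 summed (adjusted p up to 0.206 and 0.209). IFNGR2, a chain of the interferon gamma receptor, was lower with K3R in H1299, at 38.75 ± 3.52 CPM against 50.24 ± 6.1 CPM in Ctr (log2 -0.40 ± 0.10, adjusted p = 0.0484, edgeR), and passed in 4 of 21 alternatives. HIF1A was lower with K3R in A549, at 167.7 ± 34.1 CPM against 240.4 ± 47.1 CPM in Ctr (log2 -0.52 ± 0.08, adjusted p = 0.0435, edgeR), and passed in 0 of 12 fits that left out 1 library. Between the lines with Ctr, 6 of the 20 were higher and 6 lower in H1299, with STAT3 (log2 -2.01), EGFR (-1.66) and HIF1A (-1.32) the largest. These counts were near the shares over all genes tested in both lines, 31.2% higher and 30% lower.

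Other ligands of immune receptors showed 2 calls within a line, both among NKG2D ligands. RAET1G had 1.495 ± 0.198 CPM with WT in H1299 against 0.2596 ± 0.217 CPM in Ctr (log2 2.42 ± 0.57, adjusted p = 0.0323, edgeR). In Ctr, RAET1G lay near the floor of 3 counts, so it passed the low-count filter through groups where it was higher, WT among them. Its filter and test thus drew on the same counts, and its p-value is a description. RAET1E had 5.394 ± 2.91 CPM with K3R against 1.88 ± 0.849 CPM in Ctr (log2 1.46 ± 0.34, adjusted p = 0.0334, edgeR). They were 1 of 15 genes tested in each comparison, against 4.05% and 3.25% of all genes called, and they passed in 6 and 7 of 12 fits that left out 1 library. Of the T and NK cell receptor genes and other B7 genes, 4 of 16 were measured in H1299 and 5 in A549, and 0 passed within a line by edgeR. The lowest p was that of ICOSLG for K3Q against WT in A549 (log2 -0.94 ± 0.27, unadjusted p = 0.00503, adjusted p = 0.5451, edgeR). Of 9 other genes of nectins, nectin-like proteins and their partners, 6 were tested in each line and 0 passed, the lowest p being that of NECTIN1 for K3Q against K3R in H1299 (log2 -0.95 ± 0.24, unadjusted p = 0.00163, adjusted p = 0.1058, edgeR). Of the genes of these 6 lists tested in both lines, 0 passed for a difference in change between the lines by edgeR, with 0 to 4 of a list at an unadjusted p under 0.05.

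Other ligands and receptors also differed between the lines with Ctr, as did most genes tested in both lines. Of 12 other ligands tested in both lines, 4 were higher and 4 lower in H1299, near the share of 61.1% of all such genes called. Some ligands were found in 1 line almost alone and are given with no test. CD200, a ligand of the myeloid receptor CD200R, had 252 counts in H1299 Ctr against 0 in A549 Ctr, at least 78.3-fold higher against a floor of 3 counts over the group. FGL1, a ligand of LAG-3, had 0 counts in H1299 Ctr against 392 in A549 Ctr, at least 140-fold lower. CEACAM1 had 6 counts in H1299 Ctr against 290 in A549 Ctr. Of 4 receptor and B7 genes tested in both lines, NCR3LG1 was higher (log2 1.42 ± 0.23), and VSIR (-3.01 ± 0.27) and ICOSLG (-1.43 ± 0.37) were lower. Of all such genes, 31.2% were called higher and 30% lower. Of 5 genes of nectins, nectin-like proteins and partners, 1 was higher and 3 lower, against the same shares. The higher one was AFDN, which encodes the nectin-binding adaptor afadin (log2 1.93 ± 0.10), and among the lower was CADM1, which encodes a nectin-like protein (-5.91 ± 0.35). NECTIN4 had 8 counts in H1299 Ctr against 144 in A549 Ctr.

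The lines differed in their epithelial markers as well. KRT7 ran from 0.718 to 3.09 CPM in H1299 and from 2480 to 3160 CPM in A549, and CDH1 from 0 to 0.592 and from 16.9 to 107 CPM. The lung lineage genes NKX2-1, SFTPC and SFTPB stayed under 1 CPM in every library of both lines. Single markers differed between a construct and Ctr, and others of their lists did not follow. VWF, an endothelial gene that passed the filter through libraries where it was high, had 39 counts over the H1299 WT libraries against 3 in Ctr. The 2 endothelial markers measured in that comparison ran from -0.61 to 3.52 on the log2 scale. The mesenchymal marker FN1 was lower with K3R in H1299, at 9.997 ± 1.08 CPM against 18.01 ± 8.03 CPM in Ctr (adjusted p = 0.0328, edgeR), and passed in 11 of 21 alternatives. It was 1 of 4 mesenchymal markers, whose median log2 change was -0.116 (from -0.813 to 0.0328), against 3.25% of all genes called. The epithelial and carcinoma marker EPCAM was higher with K3R in A549, at 18.61 ± 8.82 CPM against 6.774 ± 3.23 CPM in Ctr (adjusted p = 0.0485, edgeR), and passed in 8 of 22 alternatives and 3 of 12 fits that left out 1 library. The 6 markers of that list measured there had a median log2 change of -0.156 and ran from -0.454 to 1.46, against 0.118% of all genes called. The part of such markers in the checkpoint gene levels was not tested.

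The genes most like SIRPA were named by the Pearson correlation of log2 CPM over the 12 libraries of a line, as a description, since the libraries of a group share their construct and Ctr stands apart. Among 12558 genes in H1299 the highest were ABLIM1 (r = 0.880), GSTM3 (0.878), LINC00944 (0.878), UBASH3B (0.875) and ELMOD1 (0.874). The lowest were SIRT6 itself (-0.917), POLRMTP1 (-0.892), NRN1 (-0.883), RP11-284F21.10 (-0.883) and RMND5B (-0.876). GSTM3, a glutathione transferase gene, averaged 10.2, 9.24 and 8.36 CPM with WT, K3R and K3Q, and 14.4 CPM in Ctr. Among 12595 genes in A549 the highest were FZD8 (0.878), TSPAN3 (0.877), DOCK1 (0.875), NR2F1 (0.874) and CHD3 (0.870). The lowest were NEFL (-0.944), SH2D3A (-0.934), ATG12 (-0.929), LAMB3 (-0.914) and DLX4 (-0.912). SIRT6 had r = -0.829 in A549. The 2 lines shared no gene among these.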

How the data were processed

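RNA was extracted with RNAiso Plus and made into libraries with a SMARTer mRNA kit, per the labels' protocols. The deposited table holds raw counts of reads per gene symbol for 24 libraries. The submitters' processing notes list FastQC, cutadapt, STAR, featureCounts and GRCh38. No source used here gives tool versions, the strand setting or the annotation release. Exon lengths and positions were read from GENCODE 29 (GRCh38) by gene symbol, and its gene models may differ from those behind the counts.

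A549 and H1299 were fitted separately, with 12 libraries each (edgeR 4.0.16, limma 3.58.1, R 4.3.3), after filterByExpr and TMM scaling, on construct and batch. The quasi-likelihood test was adjusted by Benjamini-Hochberg over 16120 genes in A549 and 16262 in H1299, and a gene passed under 0.05. For contrasts of H1299 with A549 the fit held 24 libraries and 18102 genes. CPM were scaled by TMM over 24 libraries, and intervals are 95%. Correlations used log2 CPM (prior count 2). Each standard error is the absolute log2 change over the square root of F. Counting intervals and floors cover counting error only. The procedure was run on simulated counts without batch effects, shared replicate effects or near-identical libraries. That run thus does not cover these features.

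The genes, lists and tests were chosen with earlier results of these data known. All 10 members are named, with the genes of each list that passed (at most 3 per comparison), the gene with the lowest p where none did, and the 5 genes most like and unlike SIRPA. Alternatives were DESeq2 1.42.0, RLE scaling, no low-count filter, the replicate number as a block, no batch term, one fit of 24 libraries, batch 2 alone, biological replicate 1 summed, CPM of raw totals and leaving out each library. Summing the near-identical A549 K3Q pair and using biological replicate 1 alone were added after seeing the data. Deviations from the group means at the same replicate number, batch not removed, correlated at 0.134 to 0.549 in H1299. In A549 they correlated at 0.278 to 0.749 without K3Q 2-2 and at 0.0564 to 0.118 with it. H1299 libraries with the same number thus tended to deviate alike, from the data and not from the labels, and A549 K3Q 2-2 hardly did. With batch not removed, pairing and a shared batch cannot be told apart.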

Additional observations from a re-analysis of the deposited data

How the results depend on the processing

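Of 100 tested results of members other than SIRPA, leaving out comparisons between the lines for LGALS9 and VTCN1, 2489 alternatives gave the same call in 2461, a lost call in 16, a gained call in 12 and a reversed call in 0. All lost or gained calls were those of PDCD1LG2 with WT or K3R in H1299 and of CD274 and CD276 between the lines. The number of members that passed for H1299 WT against Ctr was 1 with no low-count filter, the replicate block or DESeq2, and 0 to 1 when leaving out libraries. For H1299 K3R against Ctr it was 0 with no batch term, in one fit of 24 libraries, in batch 2 alone and with biological replicate 1 summed or alone, and 0 to 1 when leaving out libraries; the cause was not tested. SIRPA kept its direction in every comparison and alternative. Leaving out libraries moved its log2 change over -0.7 to -0.331, -0.843 to -0.477 and -0.582 to -0.211 for A549 WT, K3R and K3Q against Ctr, over -2.5 to -2.09 for H1299 K3R against Ctr, and over -0.593 to -0.186 for H1299 K3Q against K3R. With biological replicate 1 alone the last was -0.148, and its difference between the lines was -0.426. CPM from raw totals moved 10 of 80 member means by more than 1 SD.

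The counts of all genes behind the shares called moved far more. With the replicate block they were 1585 for H1299 WT against Ctr (659 with batch as the term), 1392 for K3R against Ctr (528), 1946 for K3Q against WT (563), 526 for K3Q against K3R (73) and, in A549, 105 (17), 88 (19), 20 (1) and 7 (1), with A549 K3Q 2-2 in doubt. DESeq2 gave 1057, 921, 1123 and 337 in H1299 and 178, 162, 56 and 23 in A549, and no filter gave 1301, 1276, 1258 and 650, and 296, 315, 332 and 228. Batch 2 alone gave 90, 20, 8 and 0, and 1, 1, 0 and 0, and leaving out libraries gave 245 to 742, 102 to 711, 41 to 849 and 0 to 123, and 3 to 20, 5 to 19, 0 to 2 and 0 to 2. For the 4 interactions (66, 43, 29 and 8) the block gave 125, 106, 55 and 21, and DESeq2 198, 159, 156 and 66. K3R against WT called 0 genes in both lines in all alternatives but no filter (5 in A549 and 9 in H1299). With counts of 3 to 26 a library for PDCD1LG2 in H1299, its 3.44-fold change for WT against Ctr passed in 4 of 21 alternatives and not in the main fit. The smallest change detectable at this depth was not measured.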
